A study of Mus musculus with 12 samples.

Results

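Markers of the pyramidal neurons of the hippocampal fields CA1, CA2 and CA3 were followed across 12 poly(A) RNA-seq libraries of mouse hippocampus. They are 9 named genes of the 37991 in the count files, 4 for CA1 (*Spink8*, *Fibcd1*, *Wfs1* and *Mpped1*), 3 for CA2 (*Amigo2*, *Rgs14* and *Pcp4*) and 2 for CA3 (*Bok* and *Iyd*). They were chosen by name, with earlier results of these data known, and matched by Ensembl identifier. All 9 passed the filter on low counts. None of the 9 differed between the labels at 1% FDR in either direction.

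One library was made per mouse, 6 labelled Wildtype and 6 labelled *Gadd45a*-KO, from siblings bred from *Gadd45a* heterozygotes on the C57BL/6N strain. The *Gadd45a*-KO allele replaces the first exons of the gene in every cell of the body. All 12 mice, aged 6 to 7 months by the labels, went through the passive avoidance (PA) test, and hippocampi were taken 1 h later, so no untrained group stands beside them. Counts are given as CPM, read counts scaled to a common sequencing depth with the TMM factor, which corrects for the composition of each library.

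Between 44594261 and 55540601 reads per library fell on genes, so that the least abundant marker, *Iyd*, still had 348 to 551 reads. Reads on *Gadd45a* went against the labels, with 2.19 to 3.43 CPM in the libraries labelled Wildtype and 20.5 to 23.1 CPM in those labelled *Gadd45a*-KO. Counts over the whole gene do not separate the replaced exons from the remaining one, and every direction below is therefore one between labels. Libraries 2 and 3 labelled *Gadd45a*-KO stood apart from the others in markers of thalamus, the tissue below the hippocampus. The summed level of 10 such markers was 118 to 169 CPM in the Wildtype libraries and 118 to 164 CPM in 4 of the *Gadd45a*-KO libraries, against 367 and 514 CPM in those 2. *Prkcd*, the most abundant of them, reached 136 and 216 CPM there and no more than 71 CPM elsewhere, and *Shox2* had no read in any library.

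The CA fields are successive stretches of a single sheet of glutamatergic pyramidal neurons. CA3 neurons receive the mossy fibres of the dentate granule cells and project to CA1, which is the main output toward subiculum and cortex, and CA2 lies between them and is known for its part in social memory. The fields use many of the same neuronal genes and are told apart by small sets of field-enriched transcripts, of which these markers are examples. In a dissected hippocampus, a marker's level depends both on how much of its field is in the sample and on how much RNA each cell holds. Fewer cells of a type and less RNA per cell cannot be told apart in such bulk samples.

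Other genes expressed by pyramidal neurons were read in every library. Their sum, most of it *Camk2a*, does not by itself measure how much CA tissue a library held. The 4 pyramidal neuron genes examined, which include the vesicular glutamate transporter *Slc17a7* and the kinase subunit *Camk2a*, summed to 7417 to 7676 CPM in the Wildtype and 6958 to 8214 CPM in the *Gadd45a*-KO libraries. None of those 4 passed 1% FDR or an unadjusted p of 0.05 in edgeR or in DESeq2. Their median log2 fold change was -0.00 in edgeR. *Camk2a* stood at 5768 ± 137 CPM (SD, n = 6) and 5686 ± 456 CPM (SD, n = 6).

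Within the Wildtype libraries, levels per kilobase of exon differed widely among the 9 markers. Over all annotated exon bases, *Rgs14* was the highest at 56.4 ± 3.42 CPM per kb (SD, n = 6), followed by *Pcp4* at 52.1 ± 6.44, *Wfs1* at 48.6 ± 4.76 and *Mpped1* at 48.1 ± 8.49. *Bok* at 34.5 ± 6.49, *Fibcd1* at 33.6 ± 4.61 and *Spink8* at 30.3 ± 5.15 CPM per kb came next. *Amigo2* at 12.1 ± 2.24 and *Iyd* at 5.26 ± 0.761 CPM per kb were the lowest. Neighbours in this order overlapped in range from *Rgs14* down to *Spink8*, whereas *Spink8*, *Amigo2* and *Iyd* were separated from each other in all 6 Wildtype libraries. The order did not follow the fields, because CA2 supplied the highest pair of markers and also the next to lowest one. The 641 exonic bases of *Pcp4* include 243 shared with *Igsf5* on the same strand. Its level per kb and its rank, also against *Rgs14*, are therefore uncertain.

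**Figure D1:**
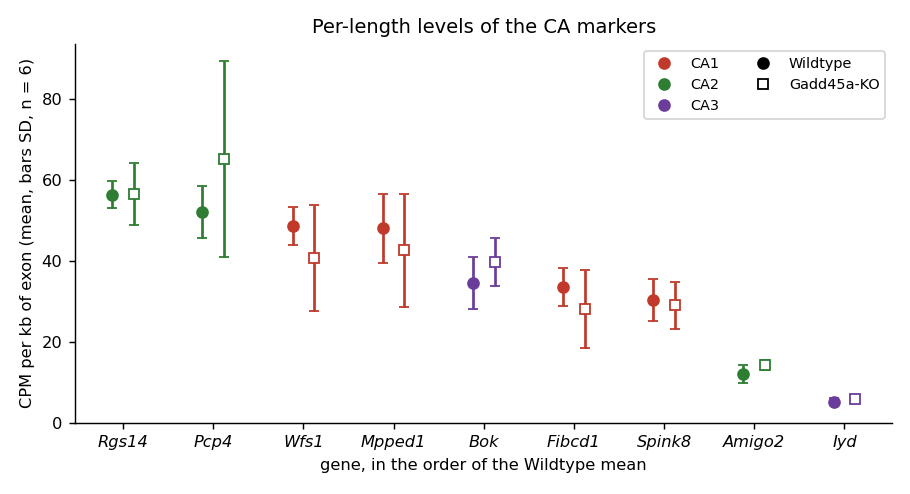
Mean level per kilobase of exon (CPM per kb) of each CA marker, ordered by the Wildtype mean, with bars of 1 SD over 6 libraries. Filled circles are Wildtype and open squares *Gadd45a*-KO. *Rgs14* and *Pcp4* lie highest and *Iyd* lowest under both labels, and the *Gadd45a*-KO bar of *Pcp4* is the longest. The length of *Pcp4* includes bases shared with *Igsf5*, so its height is uncertain.

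Over the 3 fields, the 9 markers had estimates in both directions. Their median log2 fold change (*Gadd45a*-KO minus Wildtype) was 0.01, against 0.00 over all 16399 genes tested, and 4 were negative and 5 positive. Of all tested genes, 2.65% passed 1% FDR in edgeR in either direction and 2.62% were lower, so that with 9 genes no call at all is close to that background. At an unadjusted p under 0.05 edgeR named 1 of the 9, *Amigo2*, where 13.7% of all genes reached that level. DESeq2 named 0 of 9 at 1% FDR, where 3.88% of all genes passed, and 1 of 9, *Amigo2*, at an unadjusted p under 0.05, where 13.2% of all genes did. The CPM ranges of the labels overlapped for all 9 markers. They were separate for 3.31% of tested genes, so that with 9 genes no separate range is also close to the background.

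Over all 12 libraries, the sign nevertheless followed the field. All 4 CA1 markers had negative log2 fold changes with a median of -0.21, all 3 CA2 markers positive ones with a median of 0.23, and both CA3 markers positive ones with a median of 0.19. These are estimates that did not pass the test, given as a description of the list. Without the libraries 2 and 3 labelled *Gadd45a*-KO, the medians moved to -0.02 for CA1, 0.09 for CA2 and 0.12 for CA3. The signs then no longer followed the field, with *Spink8* and *Mpped1* at 0.03 and *Pcp4* at -0.03. *Rgs14*, at 0.01 over all libraries, changed sign under 4 of 19 alternatives.

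**Figure D2:**
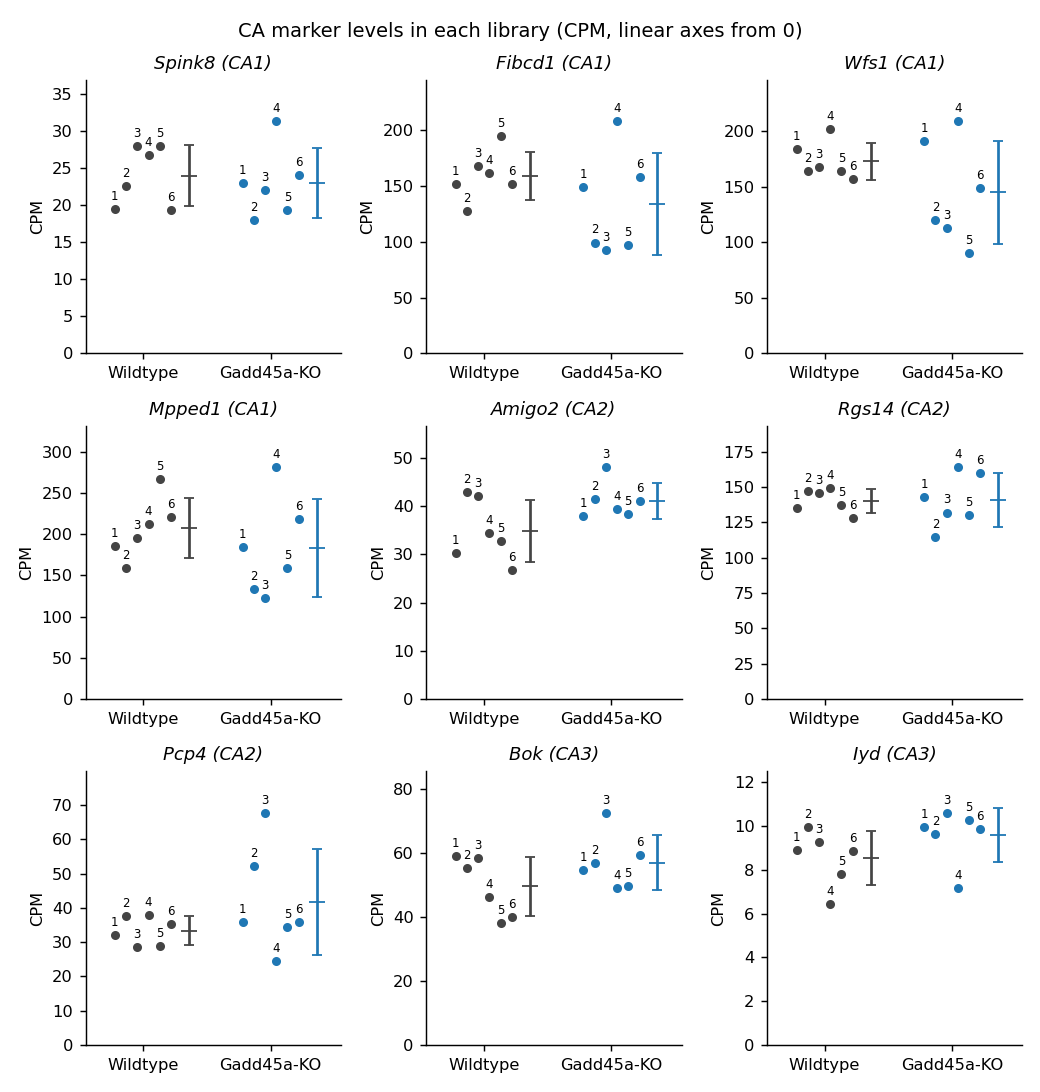
CPM of each CA marker in each library (points, numbered by replicate; linear axes from 0), with the mean and 1 SD over 6 libraries beside each label. *Gadd45a*-KO libraries 2, 3 and 5 are the lowest for *Fibcd1* and *Wfs1* and library 4 is the highest for all 4 CA1 markers, while *Pcp4* is highest in libraries 2 and 3.

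Among the CA1 markers, *Fibcd1*, which encodes a membrane receptor for acetylated sugars such as chitin, ranged from 128 through a median of 157 to 195 CPM in the Wildtype libraries. In the *Gadd45a*-KO libraries it ranged from 92.9 through 124 to 208 CPM. Libraries 2, 3 and 5 labelled *Gadd45a*-KO, at 99.4, 92.9 and 97.1 CPM, fell below every Wildtype library and library 4 rose above all of them. The log2 fold change of *Fibcd1* was -0.25 ± 0.18 (SE, 95% interval -0.63 to 0.13), with an edgeR adjusted p of 0.623 and an exact permutation p of 0.162. The gene lies on chromosome 2, at chr2:31668810-31701525 on the minus strand of NCBIM37.

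*Wfs1*, the gene for wolframin, a protein of the endoplasmic reticulum membrane mutated in Wolfram syndrome, is a classic marker of CA1. It ranged from 157 through 166 to 202 CPM in the Wildtype and from 90.5 through 135 to 209 CPM in the *Gadd45a*-KO libraries. The same libraries 2, 3 and 5 were low, at 120, 113 and 90.5 CPM, and library 6 at 149 CPM also stood under the Wildtype range. The estimate for *Wfs1* on the log2 scale was -0.25 ± 0.17 (SE, 95% interval -0.61 to 0.11), with an edgeR adjusted p of 0.581 and an exact permutation p of 0.152. *Wfs1* had the tightest Wildtype values of the 4 CA1 markers, with an SD of 0.14 on the log2 CPM scale, against 0.47 in the *Gadd45a*-KO libraries. It is annotated at chr5:37357343-37380221 on the minus strand.

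*Mpped1*, which encodes a protein with a metallophosphoesterase domain, was the CA1 marker with the most reads. It ranged from 159 through 204 to 267 CPM in the Wildtype and from 122 through 171 to 281 CPM in the *Gadd45a*-KO libraries. Libraries 2 and 3, at 133 and 122 CPM, fell below the Wildtype range, and library 5, at 159 CPM, was just under the lowest Wildtype library, which rounds to the same value. On the log2 scale the change of *Mpped1* was -0.18 ± 0.18 (SE, 95% interval -0.56 to 0.21), with an edgeR adjusted p of 0.77 and an exact permutation p of 0.325. *Mpped1* is at chr15:83609897-83688924 on the plus strand.

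*Spink8*, a Kazal-type serine peptidase inhibitor, varied least between the labels among the CA1 markers. It ranged from 19.3 through 24.7 to 28 CPM in the Wildtype and from 18 through 22.6 to 31.3 CPM in the *Gadd45a*-KO libraries, with 4 of the 6 latter inside the Wildtype range. The log2 fold change was -0.06 ± 0.13 (SE, 95% interval -0.34 to 0.22), with an edgeR adjusted p of 0.909 and an exact permutation p of 0.66. The interval excludes a fall of 1 on the log2 scale for *Spink8*, as do those of the other 3 CA1 markers. *Spink8* is at chr9:109714794-109729147 on the plus strand.

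As a field, the CA1 markers were further from the Wildtype mean in some *Gadd45a*-KO libraries than in any Wildtype one. The mean log2 CPM of the 4, as a difference from the Wildtype mean, ran from -0.20 to 0.21 over the Wildtype libraries. In *Gadd45a*-KO libraries 2, 3 and 5 it was -0.55, -0.56 and -0.57, in library 4 it was 0.38, and in libraries 1 and 6 it was -0.03 and -0.02. The *Gadd45a*-KO libraries therefore fell into a low group, a middle pair and a high one, and no correlation over them is given. In the Wildtype libraries the 6 pairs of CA1 markers had Pearson's r from -0.09 to 0.89 and Spearman's rho from -0.43 to 0.83 (n = 6, exact permutation p from 0.0417 to 0.929). None passed after adjustment over the 72 within-label pairs computed (adjusted p from 0.207), and r was -0.25 to 0.93 without the 2 outermost libraries.

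Markers of other tissue moved with some of these low and high libraries, and their part in the CA1 values was not tested. Libraries 2 and 3 carried the high thalamus markers named above, and library 3 also had the most oligodendrocyte RNA, with 4 myelin genes summing to 5713 CPM against 1849 to 2916 CPM in the other 11. Library 5 was as low in CA1 markers, with thalamus markers at 164 CPM, inside the Wildtype range. Its oligodendrocyte markers, at 2893 CPM, were within the range of the other libraries but above the Wildtype maximum of 2885 CPM. Its 5 cortex and subiculum markers summed to 175 CPM, the most of any library, against 117 to 173 CPM in the Wildtype. Library 4, the highest in CA1 markers, was the lowest in dentate granule cell markers, with 330 CPM over 7 genes against 520 to 743 CPM in the Wildtype and 471 to 681 CPM in the other *Gadd45a*-KO libraries. None of the thalamus, oligodendrocyte or dentate markers passed 1% FDR in edgeR or DESeq2. At an unadjusted p under 0.05, edgeR named 7 of the 9 thalamus markers tested, 4 of the 4 oligodendrocyte and 1 of the 7 dentate markers, and DESeq2 named 7, 1 and 1. Over all genes, 13.7% reached that level in edgeR and 13.2% in DESeq2. Without *Gadd45a*-KO libraries 2 and 3, edgeR named 0 thalamus, 0 oligodendrocyte and 1 dentate marker. In that fit 1528 of 16559 genes were under 0.05.

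**Figure D3:**
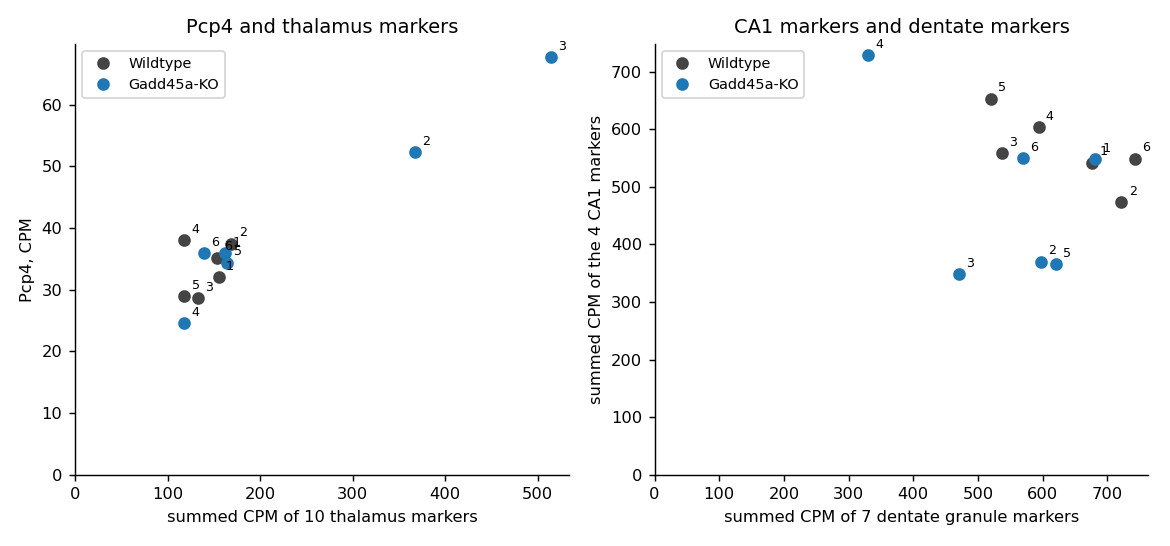
Left, CPM of *Pcp4* against the summed CPM of 10 thalamus markers; right, summed CPM of the 4 CA1 markers against that of 7 dentate granule markers. Points are libraries, numbered by replicate and coloured by label, and axes are linear from 0. *Gadd45a*-KO libraries 2 and 3 lie apart on the left, and library 4 lies at the upper left on the right with 729 CPM of CA1 markers.

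With libraries 2 and 3 labelled *Gadd45a*-KO left out, the log2 fold changes of the CA1 markers moved toward 0. *Fibcd1* was at -0.06, *Wfs1* at -0.11, *Mpped1* at 0.03 and *Spink8* at 0.03, each with an edgeR adjusted p of 1. That choice was made after the marker values had been seen. The signs of *Spink8* and *Mpped1* thus rest on those 2 libraries, and that of *Spink8* also turned (0.01) without library 2 alone. Leaving out library 4, the highest in CA1 markers, moved the log2 fold changes the other way, to -0.41 for *Fibcd1*, -0.38 for *Wfs1*, -0.33 for *Mpped1* and -0.16 for *Spink8*, with edgeR adjusted p from 0.176 to 0.535.

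Of 5 other genes listed as CA1 markers, a list chosen with earlier results of these data known, 4 could be tested. Of those, 1 was lower at 1% FDR, where 2.62% of all tested genes were. That was the only call among the 16 other markers of the 3 fields that were tested. *Ndst4*, an enzyme that modifies heparan sulfate chains, fell from 19.2 through 20.7 to 23.3 CPM in the Wildtype to 7.54 through 11.9 to 14.9 CPM in the *Gadd45a*-KO libraries. All 6 *Gadd45a*-KO libraries were below all 6 Wildtype ones, and 3.31% of all tested genes were separated in this way in either direction. The log2 fold change of *Ndst4* was -0.88 ± 0.15 (SE, edgeR adjusted p of 0.00273), and the exact permutation p of 0.00216 was the smallest that 6 against 6 can give. It was called under all 19 alternatives, and without libraries 2 and 3 the log2 fold change was -0.66 with an edgeR adjusted p of 0.000794. The 2 most abundant of that list, *Man1a*, a mannosidase of glycoprotein processing, and *Gpr161*, an orphan receptor, had log2 fold changes of -0.22 and -0.20 and did not pass. *Pou3f1* had at most 6 reads in a library and was not tested in edgeR. That symbol had 2 identifiers, and only the one with more reads was used, so its counts may not hold all its reads.

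**Figure D4:**
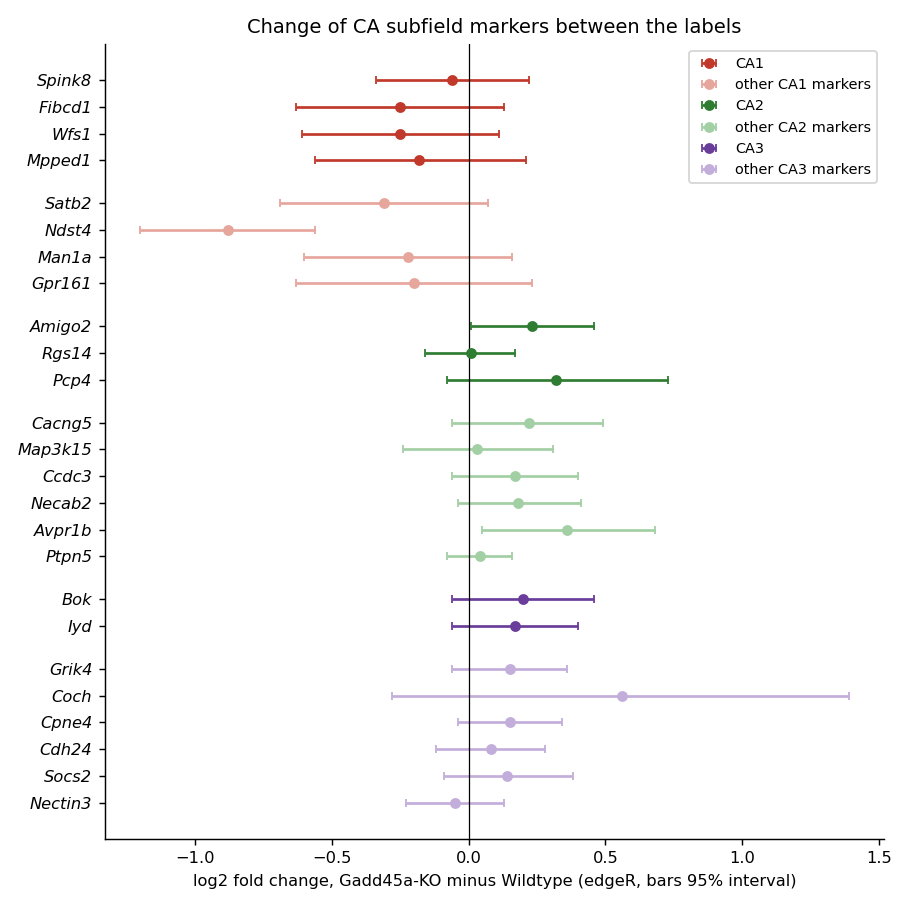
Log2 fold change (*Gadd45a*-KO minus Wildtype, edgeR) with 95% intervals for the 9 CA markers and, in paler colours, 16 other markers of the same fields. The interval of *Ndst4* lies apart below 0, and those of all CA1 and CA3 markers among the 9, of *Rgs14* and of *Pcp4* include 0, with *Amigo2* just above it. Among the paler markers, the interval of *Avpr1b* (CA2) also lies above 0.

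Among the 3 CA2 markers, *Amigo2*, a leucine-rich repeat adhesion protein of the neuronal surface, was the one nearest to a difference. It ranged from 26.8 through 33.6 to 42.9 CPM in the Wildtype and from 37.9 through 40.2 to 48 CPM in the *Gadd45a*-KO libraries. All 6 *Gadd45a*-KO libraries exceeded the Wildtype mean of 34.8 ± 6.43 CPM (SD, n = 6), yet 5 of them lay inside the Wildtype range, because Wildtype libraries 2 and 3 reached 42.9 and 42 CPM. *Amigo2* had a log2 fold change of 0.23 ± 0.10 (SE, 95% interval 0.01 to 0.46), with an edgeR p of 0.0388, an adjusted p of 0.326 and an exact permutation p of 0.0628. Without *Gadd45a*-KO libraries 2 and 3 it was 0.17 with an edgeR adjusted p of 0.869. *Amigo2* is at chr15:97074505-97077718 on the minus strand, where 58 exonic bases lie opposite *Fam113b*, and the authors counted reads by strand.

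*Rgs14*, a regulator of G-protein signalling known to restrain synaptic potentiation in CA2, had the smallest spread of the 9 over the Wildtype libraries, with an SD of 0.09 on the log2 CPM scale, though not over the *Gadd45a*-KO libraries, where its SD was 0.20 and that of *Amigo2* 0.12. It ranged from 128 through 142 to 149 CPM in the Wildtype and from 115 through 138 to 164 CPM in the *Gadd45a*-KO libraries. Its log2 fold change was 0.01 ± 0.08 (SE, 95% interval -0.16 to 0.17), with an edgeR adjusted p of 0.989 and an exact permutation p of 0.974. Its highest *Gadd45a*-KO libraries were 4 and 6, at 164 and 160 CPM, and its lowest was 2, at 115 CPM. Without libraries 2 and 3 its log2 fold change was 0.09 with an edgeR adjusted p of 0.913. *Rgs14* is at chr13:55471093-55486048 on the plus strand.

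*Pcp4*, a small protein that binds calmodulin and is also made in other brain regions, ranged from 28.6 through 33.7 to 38 CPM in the Wildtype libraries. The *Gadd45a*-KO libraries ran from 24.6 through 36 to 67.7 CPM. The high values were 52.3 CPM in library 2 and 67.7 CPM in library 3, the 2 with high thalamus markers, while the other 4 were between 24.6 and 36 CPM. Over all libraries the log2 fold change was 0.32 ± 0.19 (SE, 95% interval -0.08 to 0.73), with an edgeR adjusted p of 0.514 and an exact permutation p of 0.303. Without those 2 libraries it was -0.03 with an edgeR adjusted p of 1, and without library 3 alone 0.14 with an edgeR adjusted p of 0.877. *Pcp4* is at chr16:96689213-96747400 on the plus strand and shares 243 exonic bases with *Igsf5* on the same strand, so its counts are uncertain to that extent.

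Of the 6 other CA2 markers, none passed 1% FDR and 6 of 6 had positive log2 fold changes with a median of 0.18. At an unadjusted p under 0.05, edgeR named 1 of the 6 and DESeq2 1, where 13.7% and 13.2% of all genes reached that level. In edgeR it was *Avpr1b*, with 44 to 97 reads and a log2 fold change of 0.36 (edgeR p of 0.0278, adjusted p of 0.273). The most abundant, the tyrosine phosphatase *Ptpn5* and the calcium-binding *Necab2*, had log2 fold changes of 0.04 and 0.18. The median of the list was 0.06 without *Gadd45a*-KO libraries 2 and 3, and edgeR then named 0 of the 6 at an unadjusted p under 0.05.

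In CA3, *Bok*, a member of the BCL-2 family of cell death regulators, ranged from 38 through 50.7 to 58.9 CPM in the Wildtype and from 49 through 55.6 to 72.4 CPM in the *Gadd45a*-KO libraries. Of the latter, 4 lay inside the Wildtype range, library 6 at 59.2 CPM was at its upper edge and library 3 at 72.4 CPM was above it. For *Bok* the log2 fold change was 0.20 ± 0.12 (SE, 95% interval -0.06 to 0.46), with an edgeR adjusted p of 0.522 and an exact permutation p of 0.16. Without libraries 2 and 3 it was 0.10 with an edgeR adjusted p of 1. *Bok* is at chr1:95582271-95592339 on the plus strand.

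*Iyd*, the deiodinase that recovers iodide from iodotyrosines in thyroid, ranged from 6.46 through 8.88 to 9.95 CPM in the Wildtype libraries. It ranged from 7.16 through 9.91 to 10.6 CPM in the *Gadd45a*-KO libraries, of which library 4 was the low one and the other 5 lay between 9.63 and 10.6 CPM. The lowest library was thus number 4 under both labels, with 6.46 CPM in the Wildtype. The log2 fold change was 0.17 ± 0.11 (SE, 95% interval -0.06 to 0.40), with an edgeR adjusted p of 0.559 and an exact permutation p of 0.21. Without libraries 2 and 3 it was 0.13 with an edgeR adjusted p of 1. *Iyd* is at chr10:6791664-6806301 on the minus strand.

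Of the 6 other CA3 markers, none passed 1% FDR or an unadjusted p of 0.05 in edgeR or DESeq2. Of these, 5 had positive log2 fold changes and 1 a negative one, with a median of 0.15, or 0.07 without *Gadd45a*-KO libraries 2 and 3. The most abundant were *Cpne4*, a calcium-dependent phospholipid-binding protein, and *Grik4*, a kainate receptor subunit, both with a log2 fold change of 0.15.

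**Figure D5:**
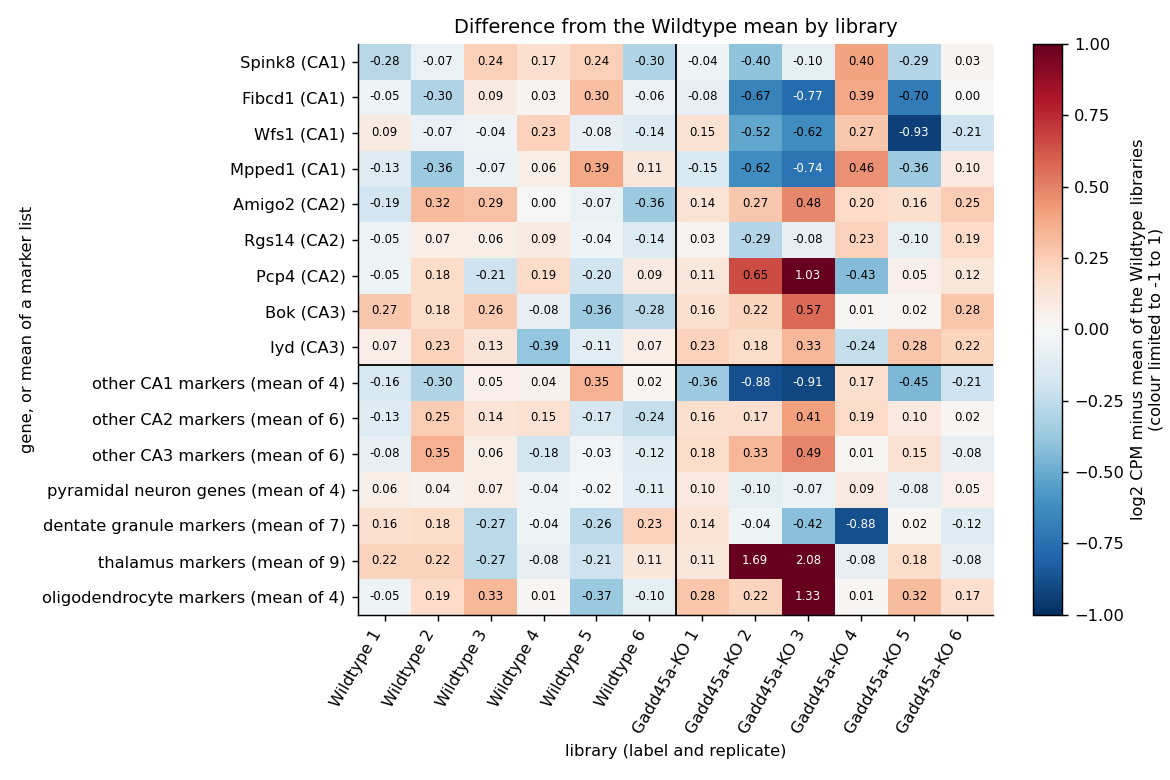
Log2 CPM of each CA marker, and the mean over each context list, in each library as the difference from the mean of the 6 Wildtype libraries (colour and printed value, colour limited to -1 to 1). CA1 rows are below 0 in *Gadd45a*-KO libraries 2, 3 and 5 and above 0 in library 4, and thalamus markers reach 1.69 and 2.08 in libraries 2 and 3.

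The balance between the fields was more uneven among the *Gadd45a*-KO libraries than among the Wildtype ones where CA1 was concerned. The mean log2 CPM of CA1 minus that of CA3 was 2.40 ± 0.34 (SD, n = 6) in the Wildtype and 1.98 ± 0.54 (SD, n = 6) in the *Gadd45a*-KO libraries, where it ran from 1.39 in library 3 to 2.90 in library 4. CA1 minus CA2 was 0.98 ± 0.22 and 0.59 ± 0.51. CA2 minus CA3 was 1.42 ± 0.21 and 1.39 ± 0.09. The difference of the spreads was not tested, and the ranges of the labels overlapped in all 3. A wider range under the *Gadd45a*-KO label was not particular to CA1. The mean log2 CPM of the 7 dentate granule markers was also taken as a difference from the Wildtype mean. It ran from -0.27 to 0.23 in the Wildtype libraries. In the *Gadd45a*-KO libraries it ran from -0.88, in library 4, to 0.14.

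The spread over libraries differed from marker to marker. On the log2 CPM scale, *Fibcd1*, *Wfs1*, *Mpped1* and *Pcp4* had SDs of 0.48, 0.47, 0.45 and 0.51 in the *Gadd45a*-KO libraries against 0.20, 0.14, 0.25 and 0.18 in the Wildtype ones. *Amigo2* went the other way, with 0.12 against 0.27. *Spink8*, *Bok* and *Iyd* were similar under both labels, at 0.28 against 0.25, 0.21 against 0.28, and 0.21 against 0.22.

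The genes whose library-to-library pattern was most like each marker were taken from 13840 genes with a mean of at least 1 CPM, by Pearson's r of the deviations from the label means over 12 libraries. The values describe likeness and carry no test, since the highest of many were kept and the libraries share their tissue composition. *Mpped1* was most like *Cadps2* (r = 0.977), *Fibcd1* most like *Zdhhc2* (r = 0.971), *Wfs1* most like *Dgkz* (r = 0.954) and *Spink8* most like *Slc24a3* (r = 0.945). The mean of the 4 CA1 markers was most like *Fam189a1* (r = 0.975). Of these, none passed 1% FDR between the labels.

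For CA2, *Rgs14* was most like *Rasl11b* (r = 0.928), *Amigo2* most like *Scrn1* (r = 0.893) and *Pcp4* most like *Tspan15* (r = 0.964). *Ramp3*, a receptor activity-modifying protein, came second for *Pcp4* (r = 0.950) and had a log2 fold change of 0.87 with an edgeR adjusted p of 0.379. In the Wildtype libraries alone, r with *Pcp4* was 0.746 for *Ramp3* and 0.950 for *Tspan15*. *Pcp4* was high in *Gadd45a*-KO libraries 2 and 3, and how far these r values rest on them was not tested. The mean of the 3 CA2 markers was most like *Cacng5* (r = 0.952), an AMPA receptor auxiliary subunit that is itself among the 6 other CA2 markers. For CA3, *Bok* was most like *Wscd1* (r = 0.933), *Iyd* most like *Mdm2* (r = 0.965) and the mean of both most like *Mitf* (r = 0.918).

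Of the markers of other cells and neighbouring tissue whose tests are not given above, none passed 1% FDR in edgeR or DESeq2. These were 5 interneuron, 5 cortex and subiculum, 5 striatum, 6 choroid plexus, 4 astrocyte, 4 microglia and 4 endothelial markers. At an unadjusted p under 0.05, edgeR named 2 astrocyte markers and none of the others. DESeq2 named 2 astrocyte, 2 microglia and 1 striatum marker. Of all tested genes, 13.7% reached that level in edgeR and 13.2% in DESeq2. With the *Gadd45a*-KO libraries high in thalamus markers left out, edgeR named 0 of the astrocyte markers. Interneuron markers summed to 550 to 610 CPM in the Wildtype and 528 to 612 CPM in the *Gadd45a*-KO libraries. That range was narrower than that of the CA1 markers, at 474 to 653 and 349 to 729 CPM. The sum was mostly *Gad1* and *Gad2*, with Wildtype means of 326 and 160 CPM. Less abundant members varied more, with *Gadd45a*-KO SDs on the log2 CPM scale of 0.36 for *Sst*, 0.39 for *Vip* and 0.20 for *Pvalb*. Those of *Gad1* and *Gad2* were 0.06 and 0.11.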

How the data were processed

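The authors prepared stranded poly(A) libraries, sequenced single reads, aligned them with TopHat 1.4.1 to NCBIM37 and counted them per Ensembl gene by strand with HTSeq 0.5.4p3 (submitters' processing notes and methods). They deposited raw read counts, with no normalization or pooling. Reads not assigned to a single gene were left out of library sizes and were 24.09% to 26.31% of each file. They were reads on no gene, ambiguous reads and reads with no unique alignment. Symbols came from a gene annotation on NCBIM37 and matched 37205 of 37991 identifiers.

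Counts were filtered with filterByExpr, scaled by TMM and compared with edgeR 4.0.16 (R 4.3.3) in a quasi-likelihood test with no covariates, at 1% FDR after the study's threshold. Log2 CPM used a prior count of 2. Exact permutation tests were two-sided (smallest p 0.00216), with scipy 1.17.1 under Python 3.11.15; plots were made by matplotlib 3.10.9. DESeq2 1.42.0, RLE factors, total counts, other filters, 5% FDR, a replicate block and leaving out libraries were alternatives. Scripts were tested on simulated data.

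The markers and gene lists were chosen with earlier results of these data known. All 9 markers, each context gene at 1% FDR or among the 2 most abundant of its list, and the genes most like each marker are named. *Shox2*, *Pou3f1*, *Avpr1b*, *Sst*, *Vip* and *Pvalb* are named besides, after their values were seen. Depth sets counting error only.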

Additional observations from a re-analysis of the deposited data

Results flagged for a closer look

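Each label's 6 libraries were examined for a library far from the others in 20 sets of values, the 9 markers and *Ndst4* under each label, and 2 stood out where chance gives about 1. *Amigo2* in library 3 labelled *Gadd45a*-KO was at 48 CPM, with the other 5 between 37.9 and 41.4 CPM. *Iyd* in library 4 labelled *Gadd45a*-KO was at 7.16 CPM, with the other 5 between 9.63 and 10.6 CPM.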

How the results depend on the processing

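No CA marker passed 1% FDR under any of 19 alternatives or at 5% FDR, and the smallest adjusted p was 0.0771 (*Amigo2*, edgeR with the replicate block). Direction changed for *Spink8* (log2 fold change 0.026), *Mpped1* (0.028) and *Pcp4* (-0.029) without libraries 2 and 3 labelled *Gadd45a*-KO, an alternative chosen after seeing the data. The exact permutation test, with 0 markers under 0.05 after TMM, gave 1 with total counts, *Amigo2* (p = 0.0455). Leaving out 1 library at a time gave log2 fold changes of -0.16 to 0.0067 for *Spink8* and -0.036 to 0.07 for *Rgs14*, and no change of sign for the other 7. The single libraries that moved one of those 7 by over 1.5 times were *Gadd45a*-KO 4 (*Fibcd1* -0.41, *Mpped1* -0.33), *Gadd45a*-KO 2 (*Mpped1* -0.09), *Gadd45a*-KO 3 (*Fibcd1* -0.16, *Mpped1* -0.08, *Pcp4* 0.14, *Bok* 0.13), *Gadd45a*-KO 5 (*Fibcd1* -0.16, *Wfs1* -0.14), Wildtype 4 (*Iyd* 0.11) and Wildtype 5 (*Mpped1* -0.08).

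With the replicate number as a block, *Rgs14* was at -0.0032, 4 of 9 markers were under an unadjusted p of 0.05 (16.3% of all genes were), and none was called. Deviations of same-numbered libraries correlated above 0.1 in 5 of 6 pairs and at -0.0761 in the other (mean 0.14, against -0.0279 between other numbers). This was short of the over 0.1 in every pair required here to treat the numbers as pairs, and no source says that equal numbers share a litter or batch. Genes lower at 1% FDR numbered 430 of all tested, 661 with DESeq2, 199 without libraries 2 and 3, and 239 to 467 with 1 library left out. With 6 libraries per label the 95% intervals still hold log2 fold changes of -0.63 for *Fibcd1* and -0.61 for *Wfs1*.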
